A study of Mus musculus with 20 samples.

Results

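The genes described here are 42 genes of DNA replication and of the nucleotide supply that feeds it, chosen by name from textbook roles and followed through 12 RNA-seq libraries of mouse TH17 cells. All 42 were found among the 24862 gene rows of the count tables. Each had at least 1 count in every library and passed the filter on low counts in every comparison. TH17 cells are CD4 T cells that make interleukin-17. The 12 libraries form 6 groups of 2, and all mice are labelled C57BL/6. In the first pair of groups, GFP-positive TH17 cells were sorted from the central nervous system (CNS) or from the ileum. Their RNA was prepared with a SMART-Seq v4 low-input kit. In the second pair, TH17(β) cells were cultured with TGF-β1 at 2 ng/ml and IL-6 at 20 ng/ml, and carried either the construct Ad-c-Rel, which overexpresses c-Rel, or the matching Ad-control. c-Rel, encoded by Rel, is an NF-κB transcription factor. In the third pair, TH17(23) cells of miR-21-/- mice or of control mice were grown in IL-23, IL-1β and IL-6 at 20 ng/ml each. Their libraries used a stranded total RNA kit. Both kinds of culture were stimulated through CD3 and CD28, with IL-4 and IFN-γ blocked by antibodies. The labels do not say whether the 2 replicates of a group came from separate animals or cultures, so the spread that p-values rest on may be technical. The kit of the Ad libraries is not clearly stated in the sources used here. A further 8 samples, of ATAC-seq, were not used here.

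DNA replication is prepared in G1, when ORC, Cdc6 and Cdt1 load the ring of MCM2 to MCM7 onto origins. In S phase, Cdc45 and the GINS complex turn that ring into the active helicase, primase and polymerase α lay down primers, and polymerases δ and ε extend them, held on DNA by the sliding clamp Pcna. Most of these genes are transcribed under E2F factors as cells pass from G1 into S phase, so their transcripts are widely read as a sign of cycling cells, which include T cells dividing after antigen. In bulk RNA, fewer cycling cells and less of each transcript per cell cannot be told apart.

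Because E2F control is the textbook link between these genes, the start-site sequences were read from RefSeq (GRCm38.p6, the assembly behind mm10). Of the 42 genes, 35 had an entry in the promoter table, which covers 250 bases before the start site and 50 after it. Mcm4, Gins1, Gins2, Gins4, Prim2, Pole and Rfc2 had none there. An E2F-type word (TTTGGCGC, TTTCCCGC, TTTCGCGC or TTTGCCGC, on either strand, where words may overlap) was present in 13 of the 35, or 37.1%, against 2.6% of 27025 genes in the same table. The 13 genes were Orc1, Cdc6, Cdt1, Mcm3, Mcm5, Mcm6, Mcm7, Gins3, Pola1, Pold1, Rfc3, Lig1 and Uhrf1. CCAAT, the word bound by NF-Y, was present in 22 of 35 (62.9%) against 41.1% of all genes. The cell-cycle homology word TTTGAA, which marks many mitotic genes, was present in 4 of 35 (11.4%) against 20.2%. An NF-κB-type word, searched because c-Rel belongs to that family, was found in 0 of 35 windows against 1.89% of all genes. The word is rare, so 0 of 35 is near that share and no conclusion about c-Rel is drawn from it. The background was every gene in the promoter table, not matched to the 35 for expression or base content. A match is a description of letters and does not show a bound site.

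The 4 windows printed here show the range of these promoters. They are Mcm5 and Mcm6 with E2F-type words that overlap on opposite strands, Gins3 with a single word, and Mcm10, which has none. Each runs 5′ to 3′ on the strand of the gene and ends at the base before the annotated gene, and capitals mark the E2F-type words.
Mcm5, chr8:75109339-75109467, plus strand: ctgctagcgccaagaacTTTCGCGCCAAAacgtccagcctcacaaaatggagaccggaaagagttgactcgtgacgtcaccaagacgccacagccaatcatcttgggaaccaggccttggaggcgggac
Mcm6, chr1:128359706-128359875, minus strand: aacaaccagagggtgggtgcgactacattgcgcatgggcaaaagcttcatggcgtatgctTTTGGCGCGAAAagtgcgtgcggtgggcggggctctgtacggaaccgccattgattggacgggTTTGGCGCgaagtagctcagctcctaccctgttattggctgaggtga
Gins3, chr8:95633389-95633558, plus strand: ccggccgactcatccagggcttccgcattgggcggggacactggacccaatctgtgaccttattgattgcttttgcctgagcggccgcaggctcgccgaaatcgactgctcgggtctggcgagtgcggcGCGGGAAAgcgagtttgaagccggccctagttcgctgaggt
Mcm10, chr2:5012792-5012961, minus strand: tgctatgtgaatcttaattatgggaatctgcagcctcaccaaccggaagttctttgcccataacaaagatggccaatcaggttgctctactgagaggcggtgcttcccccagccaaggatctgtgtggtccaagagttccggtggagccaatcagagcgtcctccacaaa

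Gene counts summed to between 32766097 and 36711252 per library in the miR-21 set and between 15421743 and 19930807 in the 8 others. Levels are given as CPM, counts per 1000000 gene counts of the library. No lengths of the counted transcripts were at hand, so levels are compared between groups and not between genes. Genes with any count numbered 14224 and 11545 in the CNS libraries and 13927 and 10771 in the ileum libraries, with the lower number in replicate 2 of each tissue. In the cultures they numbered 14183 to 16684. The replicates of the sorted cells also differed most in the replication genes. The median fold between the replicates of a group was 1.27 for the CNS and 1.22 for the ileum cells, while the 4 cultured groups had 1.05 to 1.10. Folds over 2 between replicates occurred for 3 genes in CNS and 6 in ileum, and for 0 in each cultured group. The widest gap was that of Cdc6, the MCM loading factor, at 15.1 and 0.0587 CPM in the ileum libraries, the lower value being 1 count. Rfc1, the large subunit of the clamp loader, followed at 31.7 and 4.40 CPM in the same libraries.

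Summed over the 42 genes, replication transcripts made up 2875 ± 57.0 CPM (SD, n = 2) in the control TH17(23) cultures, the highest group. The ileum cells followed with 2673 ± 99.7, Ad-control with 2606 ± 63.7, the miR-21-/- cultures with 2518 ± 72.4, CNS with 2306 ± 8.46 and Ad-c-Rel with 2092 ± 57.5. The libraries of ileum and Ad-control overlapped, as did those of Ad-control and miR-21-/-, so those neighbours did not differ beyond their spread. The other neighbours did not overlap. The 3 pairs differ in kit, in cell source and in culture, which cannot be told apart across pairs.

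The single genes did not follow 1 common order. The control TH17(23) cultures held the highest mean of 18 genes, CNS of 9, ileum of 8, Ad-control of 5, the miR-21-/- cultures of 2 and Ad-c-Rel of 0. The lowest mean fell to Ad-c-Rel for 19 genes and to CNS for 11. The fold from the lowest to the highest group had a median of 3.12 over the 42 genes. It exceeded 2 for 34 of them and 4 for 13. The shares of all genes for these folds and for the highest and lowest groups were not computed. These counts are therefore not shown to be particular to the replication genes. Rfc4, a clamp loader subunit, varied least, by 1.35-fold. Pole, the catalytic subunit of polymerase ε, varied most, by 10.6-fold, from 4.03 ± 1.44 CPM (SD, n = 2) in Ad-c-Rel to 42.8 ± 0.165 in the control TH17(23) cultures. Lig1, the ligase that seals Okazaki fragments, ran from 10.3 CPM in Ad-c-Rel to 83.0 in the same control cultures. The ATPase subunit Orc1 of the origin recognition complex and the firing factor Mcm10 were lowest in CNS, at 3.30 and 3.61 CPM, and highest in the control TH17(23) cultures, at 21.8 and 27.1. Other genes had other orders. Slbp, which binds the stem-loop of replication-dependent histone mRNAs, was highest in ileum at 291 CPM and lowest in the control TH17(23) cultures at 57.6. Pcna was highest in ileum at 356 CPM and lowest in Ad-control at 104. Mcm6 was highest in Ad-control at 398 CPM and lowest in CNS at 135.

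**Figure D1:**
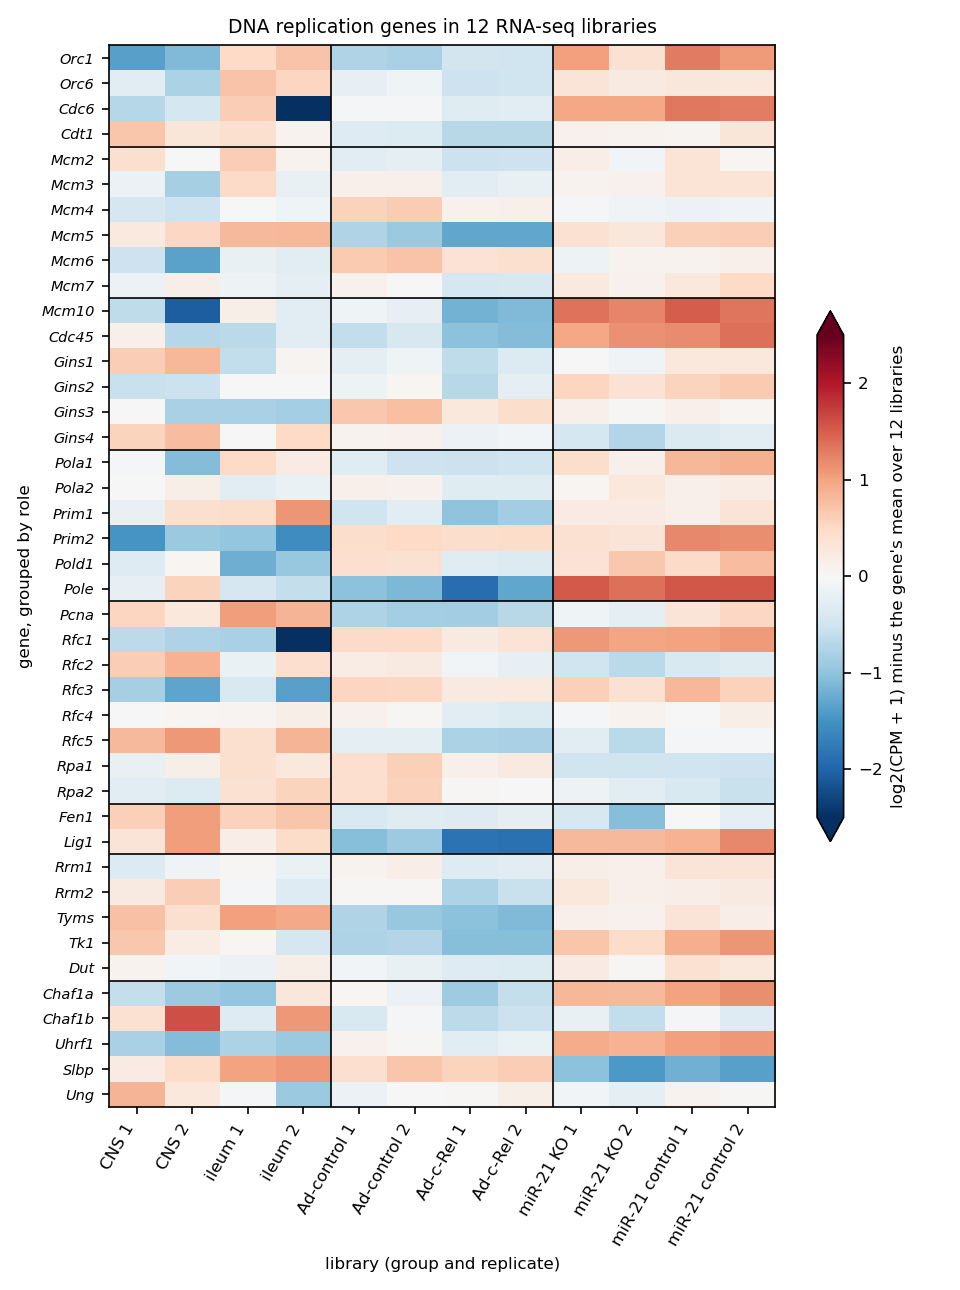
Heatmap of the 42 replication genes (rows, by role) in the 12 libraries (columns, by group). Colour is log2(CPM + 1) minus the mean of the gene over the 12 libraries, cut at ± 2.5, a limit passed in 2 cells, Cdc6 and Rfc1 in ileum replicate 2. Of the 42 genes, 18 have their highest group mean in the miR-21 control columns and 19 their lowest in Ad-c-Rel.

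In TH17(β) cells with added c-Rel, many replication genes were lower by a modest amount. The comparison asks what more c-Rel changes in these cells, and Rel itself was at 57.5 and 61.9 CPM in Ad-c-Rel against 10.8 and 7.02 CPM in Ad-control. Of the 42 genes, 18 fell and 0 rose at an adjusted p under 0.05 (edgeR quasi-likelihood test, Benjamini-Hochberg adjustment over 11711 genes), while 6.12% of all genes tested fell and 8.16% rose. At an unadjusted p under 0.05, 28 were lower (13.8% of all genes) and 1 higher (14.8%), and DESeq2 gave 15 that fell (3.84% of all genes) and 0 that rose (5.72%). The fitted log2 fold change was below 0 for 36 of the 42, against 51.0% of all genes. Its median was −0.32, against −0.01 over all genes, and its range −1.11 to 0.42. After scaling with edgeR's TMM factors, the scale on which overlap is read throughout, both Ad-c-Rel libraries lay below both control libraries for 35 of the 42, against 28.7% of all genes. Both lay above for 3 (Orc1, Fen1 and Ung), against 27.8% of all genes. The libraries overlapped for 4, Pola1, Prim2, Pcna and Slbp.

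**Figure D2:**
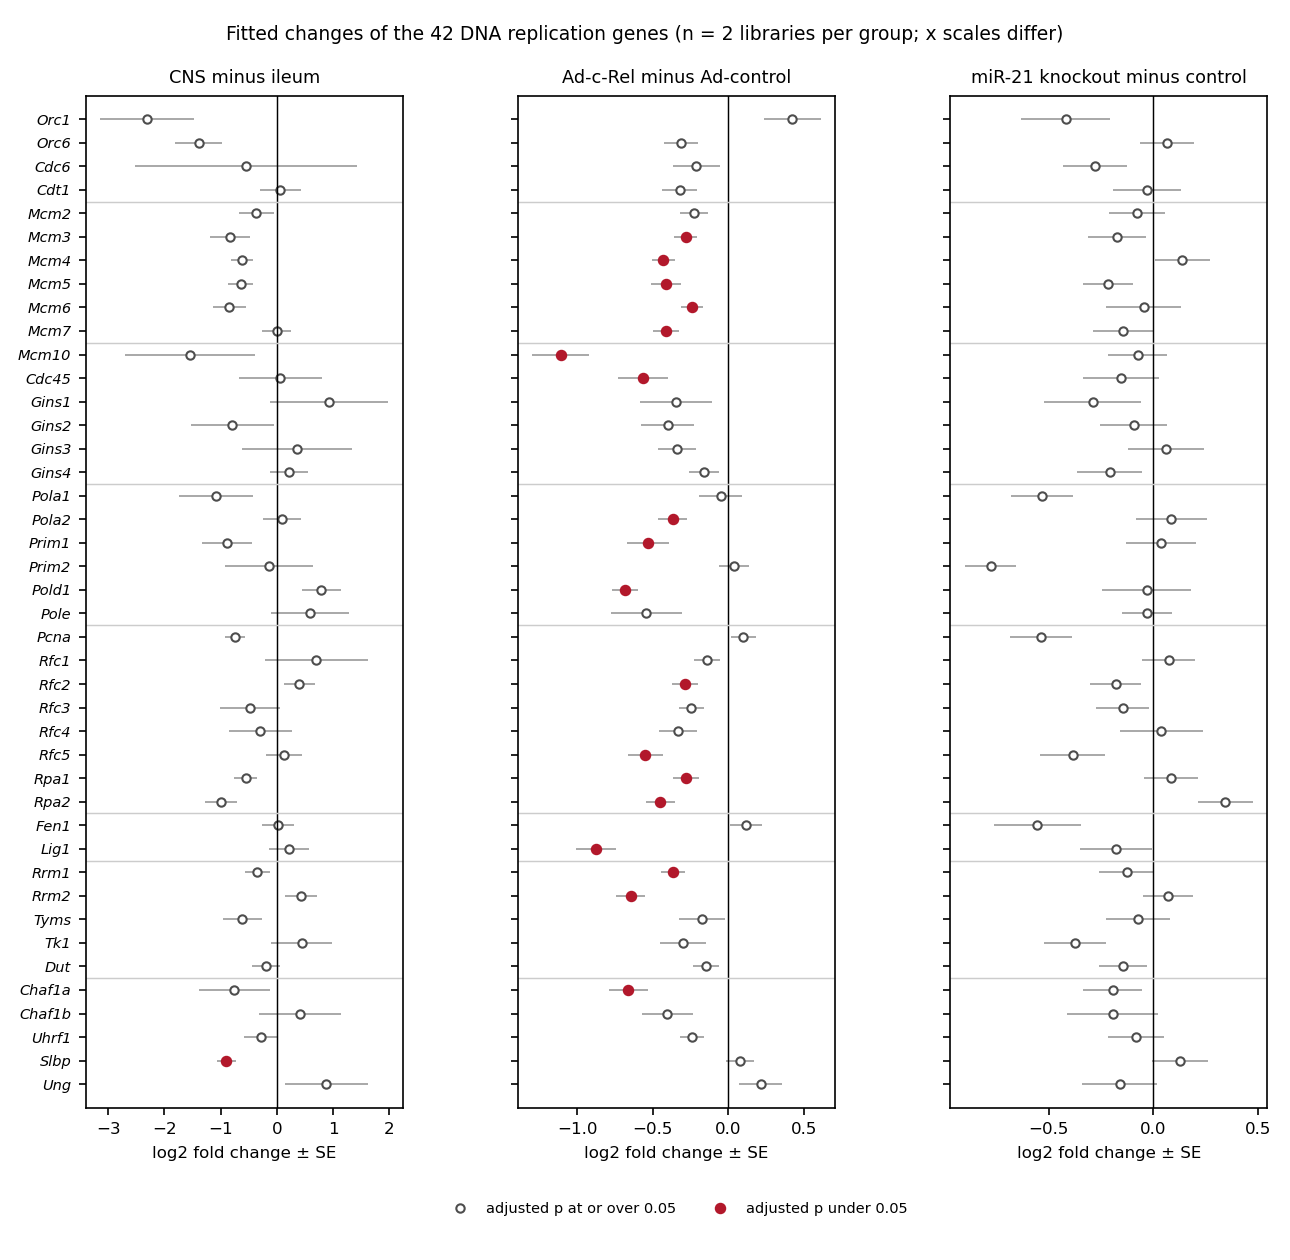
Fitted log2 fold changes of the 42 replication genes in the 3 comparisons, 1 panel each, with bars of ± 1 SE and filled points for genes with an adjusted p under 0.05. In Ad-c-Rel against Ad-control 18 genes are filled, all below 0; in CNS against ileum Slbp alone is filled, and in the miR-21 comparison none.

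Of the 4 licensing genes, which prepare origins before S phase, 0 fell in edgeR's test, and 2 were lower at an unadjusted p under 0.05. Orc6, the smallest ORC subunit, and Cdt1, the partner of Cdc6, had log2 fold changes of −0.31 (SE 0.114) and −0.32 (SE 0.115), with adjusted p = 0.0823 and 0.0741. Cdc6 stood at −0.21. Orc1 had the largest positive value of all 42 genes, at 6.26 and 6.15 CPM with c-Rel against 4.93 and 4.72 without (log2 fold change 0.42, SE 0.187, adjusted p = 0.149). All 4 licensing genes thus had libraries that did not overlap, with Orc1 on the other side from the rest.

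Of the 6 subunits of the MCM ring, 5 fell, by 0.24 to 0.43 on the log2 scale. The strongest by p was Mcm4, at 153 and 154 CPM against 210 and 220 CPM in the controls (log2 fold change −0.43, SE 0.0751, adjusted p = 0.00113). Both c-Rel libraries were below both controls for all 6 subunits. Mcm7 and Mcm5 had log2 fold changes of −0.41 each, Mcm3 of −0.28 and Mcm6 of −0.24. Mcm2 did not pass the test, with −0.23 (SE 0.0923, adjusted p = 0.115). The subunits form 1 complex in equal parts, and their 6 values lay close together.

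Of the 6 genes that activate the ring, Mcm10 and Cdc45 fell. Mcm10 had the largest fall of all 42 genes, at 3.58 and 3.83 CPM against 8.69 and 8.03 CPM (log2 fold change −1.11, SE 0.186, adjusted p = 0.000806). Cdc45, the helicase partner of MCM and GINS, was at 6.94 and 6.57 CPM against 9.60 and 11.1 CPM, a log2 fold change of −0.57 (adjusted p = 0.0306). The 4 GINS subunits had log2 fold changes of −0.16 to −0.40, none past the threshold, and their c-Rel libraries also lay below the controls.

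Of the 6 primase and polymerase genes, Pola2, Prim1 and Pold1 fell. Pold1, the catalytic subunit of polymerase δ, had the smallest p of all 42 genes. It was at 46.0 and 45.0 CPM against 77.4 and 75.1 CPM in the controls (log2 fold change −0.69, SE 0.0857, adjusted p = 4.7e-05). Prim1, the catalytic primase subunit, was at 11.0 and 12.2 CPM against 16.0 and 18.8 CPM, a log2 fold change of −0.53. Pola2, the second subunit of polymerase α, was at 30.8 and 30.9 CPM against 42 and 41.0 CPM, a log2 fold change of −0.37. Their partners in the same complex had values near 0, −0.05 for Pola1, the catalytic subunit of polymerase α, and 0.04 for Prim2, the large primase subunit. Whether the partners differ from each other was not tested. Pole was at −0.54 (SE 0.234, adjusted p = 0.137).

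Of the 8 genes of the clamp, its loader and the single-strand binding protein RPA, 4 fell: Rfc2, Rfc5, Rpa1 and Rpa2. Rfc5, a small loader subunit, was at 15.1 and 15.0 CPM against 23.1 and 22.7 CPM (log2 fold change −0.55, SE 0.114, adjusted p = 0.00451). Rpa2, the middle RPA subunit, was at 41.1 and 39.9 CPM against 54.7 and 60.4 CPM (log2 fold change −0.45, SE 0.0958, adjusted p = 0.00529). The remaining loader genes Rfc1, Rfc3 and Rfc4 had values of −0.14, −0.25 and −0.33 without passing the test. The clamp itself did not follow them. Pcna was at 101 and 114 CPM against 107 and 101 CPM, a log2 fold change of 0.10 (SE 0.0845, adjusted p = 0.473), with libraries that overlapped.

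Fen1 and Lig1 act one after the other on Okazaki fragments, where Fen1 trims the flap and Lig1 closes the nick. Lig1 was at 10.4 and 10.2 CPM with c-Rel against 18.5 and 20.7 CPM without (log2 fold change −0.88, SE 0.131, adjusted p = 0.000285), and so fell. Fen1 was at 29.6 and 31.4 CPM against 28.4 and 30.1 CPM (log2 fold change 0.12, SE 0.103, adjusted p = 0.494).

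Of the 5 genes of nucleotide supply, both subunits of ribonucleotide reductase, which makes deoxynucleotides, fell. Rrm2, its regulated small subunit, was at 41.2 and 48.0 CPM against 72.8 and 72.6 CPM (log2 fold change −0.65, SE 0.0956, adjusted p = 0.000249). Rrm1, the large subunit, was at 99.8 and 105 CPM against 134 and 140 CPM, a log2 fold change of −0.37 (adjusted p = 0.00571). Tyms and Dut, which make thymidylate and remove dUTP, and the salvage kinase Tk1 had values of −0.18, −0.15 and −0.30, none past the threshold. A pseudogene row, Tyms-ps, stands beside Tyms in the tables, so the counts of Tyms are uncertain.

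The last 5 genes act on chromatin, on histone mRNA and on uracil in DNA. Chaf1a, the large subunit of the histone chaperone CAF-1, fell, at 14.1 and 17.4 CPM against 27.9 and 24.1 CPM (log2 fold change −0.66, SE 0.128, adjusted p = 0.0027). Its partner Chaf1b was at −0.40 (adjusted p = 0.126) and Uhrf1, which guides maintenance methylation to new DNA, at −0.24 (adjusted p = 0.0649). Slbp was at 208 and 216 CPM against 189 and 229 CPM, a log2 fold change of 0.08. Ung, the uracil-DNA glycosylase, was at 11.9 and 13 CPM against 10.5 and 11.7 CPM (log2 fold change 0.22, SE 0.142, adjusted p = 0.347). Neither passed the test.

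**Figure D3:**
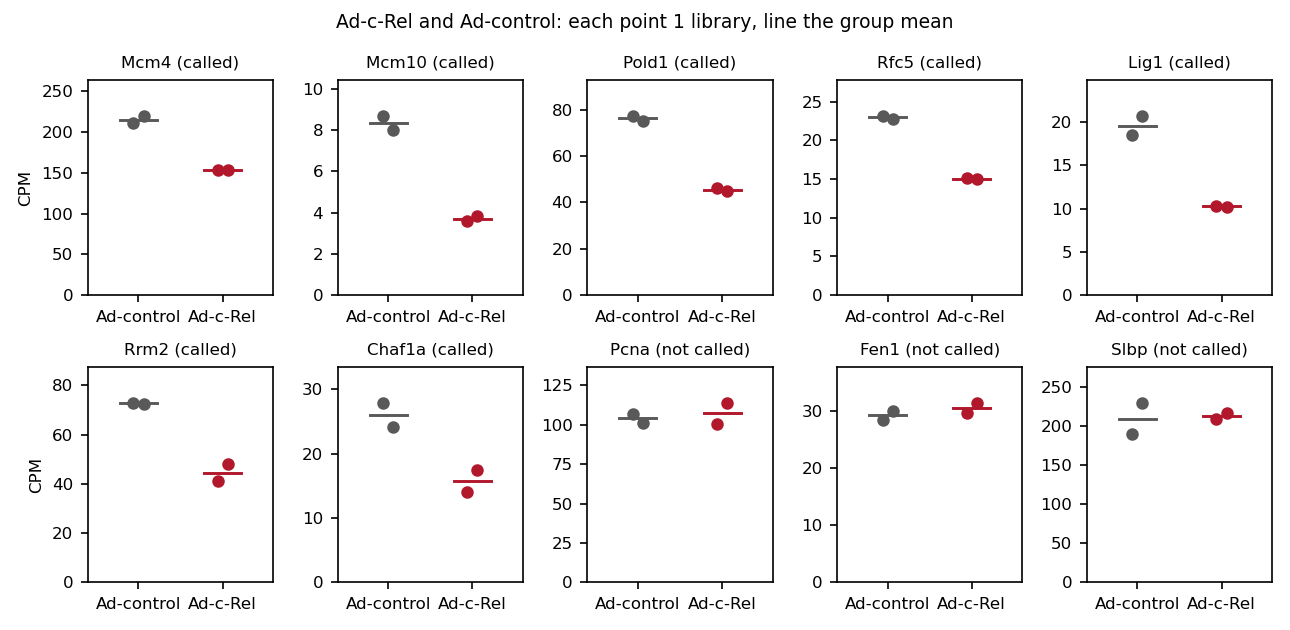
Level in CPM of 10 replication genes, the called gene of smallest p in each of 7 roles and the uncalled Pcna, Fen1 and Slbp, with an axis from 0 in each panel, 1 point per library and a line at the mean of the 2 libraries. In each panel marked called, both Ad-c-Rel points lie below both Ad-control points, as for Pold1 at 46.0 and 45.0 against 77.4 and 75.1 CPM.

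How many of the 18 calls stood depended on single libraries. Without Ad-control replicate 2, 11 genes fell (585 of all 11963 genes tested), and without Ad-c-Rel replicate 1, 9 did (597 of 11926). The calls of 9 genes held without any 1 of the 4 libraries: Mcm4, Mcm7, Mcm10, Pold1, Rfc5, Rpa2, Lig1, Rrm2 and Chaf1a. In 1 fit over all 12 libraries, in which the sorted cells share the estimate of spread, 0 of the 42 fell, and of all genes 18 rose and 1 fell. Genes fell both with and without the E2F-type word. Of the 13 genes with the word 6 fell, with a median log2 fold change of −0.28 over the 13. Of the 22 without it 10 fell, with a median of −0.32. The split is by letters alone, and a gene without the word may still be under E2F control. It therefore cannot decide on a part of E2F.

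Other genes of the same pathways were described from lists of textbook members, chosen like the 42 genes with earlier results known. Of all genes tested with c-Rel, 6.12% fell, 8.16% rose and 51.0% had values below 0. Of 30 further replication genes, 4 fell with c-Rel and 0 rose, with a median log2 fold change of −0.21 and values below 0 for 28. Those of smallest p were Chtf18 (−0.95, adjusted p = 0.00615), part of an alternative clamp loader, Ticrr (−0.67, adjusted p = 0.0074), which starts origin firing, and Timeless (−0.55, adjusted p = 0.0172), which protects forks. Of 25 tested E2F and G1/S regulators, 3 rose and 4 fell, with a median of −0.09. Ccna2, the cyclin of S and G2 phase, fell by 1.55 on the log2 scale (adjusted p = 7.68e-08). The D cyclin Ccnd2 rose by 0.88 (adjusted p = 4.85e-06) and the CDK inhibitor Cdkn1a by 0.47 (adjusted p = 0.000334). Of 16 other nucleotide supply genes, 2 rose, Nme1 by 0.33 and Gart by 0.28 on the log2 scale.

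Mitotic genes moved further than replication genes in the c-Rel cells. All 20 listed mitotic genes fell, against 6.12% of all genes tested. Their log2 fold changes were −1.62 to −0.76 with a median of −1.16, against −0.32 for the 42 replication genes. Ccnb2 was at −1.62, the APC/C activator Cdc20 at −1.36 and Ccnb1 at −1.13. The summed mitotic CPM over the summed replication CPM was 0.30 and 0.302 in the Ad-c-Rel libraries and 0.514 and 0.531 in the controls. This ratio therefore did not overlap between the groups. In CNS it was 0.230 and 0.247 and in ileum 0.201 and 0.172. In the miR-21-/- cultures it was 1.01 and 1.50, and in their controls 0.669 and 0.918. There the knockout libraries lay above the controls, the opposite direction to c-Rel. The nearest libraries of these groups lay closer together than the replicates of either group. No test was made of these ratios, which are sums over genes chosen with earlier results known.

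**Figure D4:**
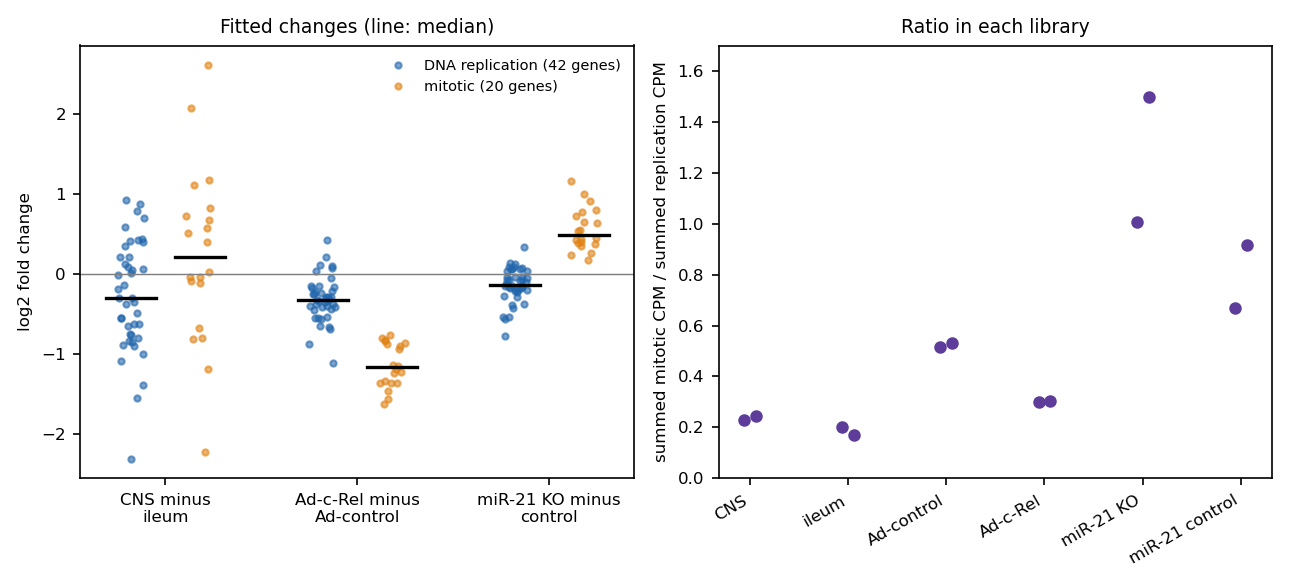
Replication genes beside mitotic genes: fitted log2 fold changes of the 42 replication and 20 mitotic genes in each comparison, and the ratio of summed mitotic to summed replication CPM in each of the 12 libraries. With c-Rel the mitotic median of −1.16 lies below the replication median of −0.32, and in the miR-21 knockout the medians are 0.49 and −0.14.

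In TH17 cells sorted from the CNS against those from the ileum, a single replication gene passed the test. The direction of the others depended on the scaling, with 25 of 42 genes below 0 after TMM and 18 after scaling to T cell identity genes. Myeloid markers moved with the comparison, at 27778 and 28564 CPM in CNS and 2763 and 2976 CPM in ileum, and their part was not tested. Slbp fell, at 163 and 194 CPM in CNS and 283 and 299 CPM in the ileum cells (log2 fold change −0.90, SE 0.172, adjusted p = 0.0343, edgeR quasi-likelihood test). Thus 1 of 42 fell and 0 rose, against 5.66% and 4.0% of the 12038 genes tested, so the count is near the background and is no result about the 42 genes. The call of Slbp was lost without CNS replicate 1 (adjusted p = 0.0805), ileum replicate 1 (0.0598) or ileum replicate 2 (0.0948). At an unadjusted p under 0.05, 9 of 42 were lower (background 13%) and 0 higher (background 11.4%). DESeq2 gave 10 that fell (15.1% of all genes) and 1 that rose (14.4%). The fitted value was below 0 for 25 of 42, against 47.3% of all genes, and the median was −0.29 against 0.08. Both CNS libraries lay below both ileum libraries for 19 genes (27.5% of all genes) and above for 5 (32.3%), and the libraries overlapped for 18.

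After TMM scaling the MCM ring had a median log2 fold change of −0.63, with Mcm7 at −0.00 and the other 5 subunits between −0.85 and −0.37. After scaling to T cell identity genes Mcm2 was at 0.078 and Mcm7 at 0.43. Orc1 was at 2.91 and 3.69 CPM in CNS against 13.2 and 15.4 CPM in the ileum cells (log2 fold change −2.31, SE 0.833, adjusted p = 0.171). Orc6 was at 21.2 and 14.2 CPM against 42.8 and 37.7 CPM (−1.39, SE 0.420, adjusted p = 0.115). For both, the CNS libraries were the lower ones without overlap. Mcm10 was at 5.71 and 1.51 CPM against 10.6 and 7.63 CPM (−1.55, SE 1.15, adjusted p = 0.505). Pcna was at 269 and 221 CPM against 380 and 331 CPM (−0.74, SE 0.175, adjusted p = 0.0608). Of the ring, Mcm4 was at 105 and 98.1 CPM against 141 and 131 CPM, without overlap (adjusted p = 0.127).

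Other genes had higher values in CNS, none past the test. Pold1 was at 45.4 and 59.5 CPM in CNS against 24.0 and 29.0 CPM in the ileum cells (log2 fold change 0.79, SE 0.349, adjusted p = 0.249). Gins1, a GINS subunit, was at 7.85 and 9.31 CPM against 2.77 and 5.11 CPM (0.93, SE 1.05, adjusted p = 0.673). Ung was at 22 and 14.2 CPM against 11.4 and 5.63 CPM (0.88, SE 0.739, adjusted p = 0.559). The CNS libraries of all 3 lay above the ileum libraries. Rrm2 was at 83.3 and 109 CPM against 68.2 and 56.7 CPM, also without overlap (adjusted p = 0.439). By role, the medians were 0.14 for helicase activation, −0.02 for primase and polymerases, −0.39 for clamp, loader and RPA, 0.12 for Fen1 and Lig1, −0.19 for nucleotide supply and −0.29 for the chromatin, histone mRNA and uracil group. Cdc6 and Rfc1 could not be read, since their values turned with 1 ileum library. Without ileum replicate 1 Rfc1 was at 2.78 (adjusted p = 0.0315, the lowest of 10 alternatives that ran up to 0.940) and without ileum replicate 2 at −0.12.

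The CNS and ileum samples were not made of T cells alone. T cell identity genes were present in all 4 libraries, with Cd3e at 270 and 258 CPM in CNS and 311 and 370 CPM in ileum. Of the 11 of these genes tested, 3 were lower in CNS, and their sum was 5275 and 5426 CPM in CNS against 6408 and 6198 CPM in ileum. Myeloid and microglial markers were higher in CNS for 16 of 16, summing to 27778 and 28564 CPM against 2763 and 2976 CPM, with none at 0 in these libraries. The microglial gene Tmem119 was at 407 and 398 CPM in CNS against 0.0615 and 0.117 CPM in ileum. B and plasma cell markers were lower in CNS for 5 of 7 tested, summing to 21.0 and 16.7 CPM against 3800 and 3723 CPM, and Ms4a1 was at 0 in both CNS libraries. Neutrophil markers were higher for 3 of 8, summing to 232 and 228 CPM against 0.80 and 0.117 CPM. TH17 genes such as Il17a were lower for 5 of 6, summing to 603 and 568 CPM against 9741 and 10651 CPM. The part of these cells in the replication values was not tested. When the libraries were scaled to the summed counts of T cell identity genes in place of TMM, the median of the 42 genes was 0.14, the median of all genes 0.52, and 18 of the 42 were below 0. On that scale Slbp was at −0.47 (adjusted p = 0.151, where the 10 alternatives ran from 2.64e-06 to that value) and 0 of the 42 fell. The direction of the median thus depends on the scaling. A change of scaling moves all genes by nearly the same amount, so its place below the median of all genes could not change.

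The lists around the pathway held few calls in this comparison, with fitted values that spread widely. Of 30 other replication genes 0 rose and 0 fell (edgeR), with a median of 0.26 and a range of −1.85 to 4.22, and at an unadjusted p under 0.05 2 were lower. Of 26 E2F and G1/S regulators, Cdkn1a alone fell (−1.49, adjusted p = 0.00333). Of 16 other nucleotide supply genes, the dNTP hydrolase Samhd1 rose (1.2, adjusted p = 0.0123) and Impdh2, the rate-limiting enzyme of guanine nucleotide synthesis, fell (−1.14, adjusted p = 0.0321). Of 20 mitotic genes 0 passed the test, with a median of 0.22, a range of −2.22 to 2.62 and 1 gene lower at an unadjusted p under 0.05.

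Loss of miR-21 in TH17(23) cells left the replication genes with slightly lower values and none past the test made without a replicate block. Mir21a had 0 counts in both knockout libraries and 25 and 20 in the controls, which checks the labels through the short precursor gene and not through the mature microRNA. In edgeR's test 0 of the 42 genes changed, and 0 of the 13428 genes tested did (0%). That fit did not use the replicate number. Same-numbered libraries deviated together (correlation 0.659), and with that number as a block genes were called, as given in the section on processing. The labels do not say what the number marks. DESeq2 called Prim2 alone among the 42, and of all genes 339 higher (2.52%) and 485 lower (3.61%). At an unadjusted p under 0.05, 5 of the 42 were lower, against 11.4% of all genes, and 1 was higher, against 9.60%. The fitted value was below 0 for 31 of 42, against 51.8% of all genes, with a median of −0.14 against −0.02. Both knockout libraries lay below both controls for 18 genes (28.9% of all genes) and above for 2 (27.0%), and 22 overlapped.

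Prim2 had the smallest p of the 42 genes. It was at 33.3 and 32.1 CPM in the knockout against 59.6 and 58.0 CPM in the controls (−0.78 on the log2 scale, SE 0.124, and in edgeR's test adjusted p = 0.117). The replicates of each group lay close together, and the groups were far apart. Without miR-21-/- replicate 1 its adjusted p was 0.0421, with DESeq2 it was 0.00401, and over the 9 alternatives it ran from 4.83e-05 to 0.456. Its catalytic partner Prim1 was at 26.7 and 26.8 CPM against 25.2 and 29.6 CPM, a log2 fold change of 0.03. The other genes lower at an unadjusted p under 0.05 were Fen1, Pcna, Pola1 and Tk1. Fen1 was at 28.0 and 17.2 CPM against 37.6 and 31.2 CPM (−0.56, SE 0.209, adjusted p = 0.216). Pcna was at 171 and 156 CPM against 232 and 265 CPM (−0.54, SE 0.147, adjusted p = 0.157). Pola1, the partner of primase, was at 22 and 17.5 CPM against 29.2 and 30.4 CPM (−0.53), and Tk1 at 29.2 and 24.8 CPM against 34.0 and 39.1 CPM (−0.38). In all 4 the knockout libraries lay below the controls.

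The fitted value was below 0 for 31 of the 42 genes and above 0 for the rest. The 3 largest values above 0 were smaller in size than those of the genes lower at an unadjusted p under 0.05. Rpa2 was at 37.0 and 33.4 CPM against 30.9 and 27.2 CPM (log2 fold change 0.34, SE 0.131, adjusted p = 0.22). Mcm4 was at 138 and 134 CPM against 127 and 132 CPM (0.14, SE 0.131, adjusted p = 0.557). Slbp was at 69.1 and 51.8 CPM against 60.9 and 54.3 CPM (0.13, SE 0.135, adjusted p = 0.603), with libraries that overlapped. The MCM subunits lay between −0.22 for Mcm5 and 0.14 for Mcm4. In contrast to the replication genes, all 20 mitotic genes had values above 0, with a median of 0.49 and a range of 0.18 to 1.16. None of them passed the adjusted test, and 9 were higher at an unadjusted p under 0.05 (9.60% of all genes). For 10 of them the knockout libraries lay above both controls (27.0% of all genes). The 30 other replication genes had a median of 0.01, the E2F and G1/S regulators 0.07 and the other nucleotide supply genes −0.08, with 0 past edgeR's test in each list. At an unadjusted p under 0.05, 3 of the 30 were higher and 1 lower. Of the 26 regulators 6 were higher and 3 lower, and of the 16 nucleotide supply genes 1 was lower. Of all genes tested, 9.60% were higher and 11.4% lower at that threshold.

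Myeloid markers were lower in the cultures than in the sorted cells. They summed to 248 to 277 CPM in the Ad libraries and 124 to 151 CPM in the miR-21 libraries. B and plasma cell markers summed to 81.7 to 92.1 CPM in the Ad libraries and 29.8 to 63.0 CPM in the miR-21 libraries. Those sums lay above the CNS libraries (21.0 and 16.7 CPM) and below the ileum libraries (3800 and 3723 CPM). T cell identity genes summed to 7638 and 7610 CPM with c-Rel against 7151 and 7391 CPM without, and to 3623 and 3419 CPM in the knockout against 4037 and 4023 CPM in its controls. TH17 genes summed to 7271 and 7224 CPM with c-Rel against 3942 and 4210 CPM without, and to 667 and 341 CPM in the knockout against 2063 and 1500 CPM in its controls. Their part in the replication values was not tested. Of the 42 genes, 16 overlap another annotated gene on the genome. For 11 of them this includes a protein-coding gene (Orc1, Mcm7, Cdc45, Gins2, Rfc4, Rpa1, Fen1, Lig1, Tk1, Chaf1a and Ung). Prim2 overlaps 2 pseudogenes. The strand setting of the counting is not given in the sources used here, so reads of such neighbours may not be separated.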

How the data were processed

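Gene symbols with raw read counts were deposited by the authors, 1 table per library. The submitters' processing notes name TopHat2 2.1.0, HTSeq 0.11.0, Trim Galore 0.4.4 and mm10, with no role or order. Summary lines that name no gene, 14.7% to 26.1% of each table's total, were left out. Reads with several alignments were listed at 2.25% to 3.53%, but at 0 in the miR-21 set, so near-identical genes may be counted differently there.

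CPM were computed here from gene counts. For each comparison, edgeR 4.0.16 under R 4.3.3 was run on the 4 libraries concerned (filterByExpr, TMM, two-sided quasi-likelihood F test, Benjamini-Hochberg over all genes tested, threshold 0.05). Each fit has 2 residual degrees of freedom, to which edgeR adds those borrowed across genes. The SE was derived as |log2 fold change| / sqrt(F). The fitting script was tested on simulated data. The chi-square of replicate counts was 4.60 to 67.8 times its degrees of freedom, above sampling noise, so none were merged.

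The 42 genes and all gene lists were chosen with earlier results of these data known. All 42 are accounted for. Full values are given for the called gene of smallest p in each role, the 3 largest and 3 smallest log2 fold changes per comparison, and up to 3 called genes per further list. The remaining genes were named after their values were seen. Alternatives were DESeq2 1.42.0, upper-quartile scaling, no filter, 1 fit over 12 libraries, a replicate block, each library left out and, for CNS and ileum, scaling to T cell identity genes. The result of 1 gene of the further nucleotide supply list is not reported here.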

Additional observations from a re-analysis of the deposited data

How the results depend on the processing

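Over the 9 or 10 alternatives of each comparison, no median of the replication genes changed sign except in CNS against ileum under scaling to T cell identity genes (0.14; −0.22 with upper-quartile scaling). There, DESeq2 called 10 genes lower and 1 higher (all genes 1813 and 1738), the fit over 12 libraries also 10 and 1 (2012 and 1988), no filter 4 lower (1300), and T cell scaling 0 lower (384). Leaving out 1 library gave 0 to 1 lower, 0 to 1 higher and medians of −0.34 to −0.12. With c-Rel, 15 genes were lower with DESeq2, all among the 18, and 0 in the fit over 12 libraries; leaving out 1 library gave 9 to 14 and medians of −0.35 to −0.24. In the miR-21 comparison DESeq2 called 1 lower, and leaving out 1 library gave 0 to 2, with medians of −0.16 to −0.069. The cause of these differences was not tested. With 1 library left out, the lone sample of a group is assumed to vary like the other group.

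Groups share replicate numbers, but the labels do not say that a number marks an animal or day, and there are 2 pairs per comparison. Deviations of same-numbered libraries correlated at 0.078 (CNS and ileum), 0.107 (c-Rel) and 0.659 (miR-21). With the replicate number as a block, 2 genes were lower in CNS (775 of all genes), 26 with c-Rel (1314), and 7 lower and 1 higher in the miR-21 knockout, where 2287 of all genes were higher and 2520 lower. Of the values of single genes under the alternatives, 190 kept direction and side of the threshold, 13 passed it and 11 no longer did. That tally covers 23 pairs of gene and comparison, picked as called, of smallest p or of most extreme log2 fold change. Genes outside it changed sign, such as Cdc6 in CNS against ileum, whose log2 fold change ran from −1.54 to 6.37. In the last 200 bases of the promoter windows, 12 of 35 genes held an E2F-type word.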

Other observations

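Of the 42 replication genes, 15 (35.7%) had a fitted log2 fold change below 0 in all 3 comparisons, which share no library. They were Cdc6, Mcm2, Mcm3, Mcm5, Mcm6, Mcm7, Mcm10, Gins2, Pola1, Rfc3, Rrm1, Tyms, Dut, Chaf1a and Uhrf1. Of the 10777 genes tested in all 3 comparisons, 844 (7.83%) had this pattern. The count uses signs alone and depends on the scaling of CNS and ileum. With those libraries scaled to T cell identity genes it was 10 of 42. The share of all genes on that scale was not computed. In the single comparisons 25, 36 and 31 of the 42 were below 0, so the pattern is not separate from those counts. In CNS against ileum the sign of Cdc6 turned with 1 ileum library and Mcm7 stood at −0.00. Above 0 in all 3 were 0 of the 42 genes. It is a description with no test.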
